A study of Homo sapiens with 12 samples.

Results

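The 10 genes followed here encode receptors, or the signalling chain of receptors, that monocytes use to sense growth factors, antibodies and microbial products. They were the rows of the deposited table whose gene name is CSF1R, CSF2RA, CSF3R, CCR2, FCGR1A, FCGR2A, FCER1G, CD14, TLR2 or TLR4. All 10 of 10 were found, of 57820 genes in the table. A second CSF2RA row, the Y-chromosome copy of that pseudoautosomal gene, was listed at 0 in the 12 libraries and was not used. The cells were HL60, a human acute myeloid leukaemia line of promyelocytic character. They had been transduced with a puromycin-selectable vector that was either empty (EV) or carried TFEB with the S211A change, which doxycycline induces. TFEB is a transcription factor of lysosomal and autophagy genes, and the serine changed here is a residue whose phosphorylation holds it in the cytoplasm. The 4 groups were TFEB-Dox (TFEB S211A vector with doxycycline), TFEB-Veh (the same vector with vehicle), EV-Dox (empty vector with doxycycline) and EV-Veh (empty vector with vehicle). The drug dose was 1 µg/ml over 48 h, from a treatment protocol that the labels repeat for every sample, and the treatment label tells the vehicle samples apart. Each group held 3 independent experiments, per the series' design text. Both vectors were tested in 1 cell line, no clone is named in the labels, and TFEB-Dox against TFEB-Veh by itself does not separate the transgene from the drug.

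CSF1R binds CSF1 and IL34 and carries monocytes and macrophages through survival and maturation, while CSF2RA and CSF3R are the receptor chains for GM-CSF and G-CSF. FCGR1A and FCGR2A bind IgG, and FCER1G is the short gamma chain whose ITAM motif passes the signal of FCGR1A and other activating receptors to SYK. CD14 and TLR4 together detect lipopolysaccharide, TLR2 detects bacterial lipoproteins, and CCR2 guides monocytes along CCL2. In the myeloid line PU.1 and C/EBP factors are known regulators of many of these genes. TFEB itself binds the E-box CACGTG.

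Every level below is given on a named scale. Deposited normalized values are the authors' own, and RPM is the usual read count scaled to the library's total, from whole reads recovered from those values. Recovered reads ranged from 4474007 in EV-Dox replicate 3 to 22488047 in EV-Veh replicate 2, and mitochondrial genes took 13.3% to 33.1% of a library. Both moved with the groups. The mitochondrial share averaged 16.0% in TFEB-Dox, 26.6% in TFEB-Veh, 30.4% in EV-Dox and 23.8% in EV-Veh. Recovered reads were 13931354 to 20267420 in TFEB-Dox, 7769481 to 13933397 in TFEB-Veh, 4474007 to 11681639 in EV-Dox and 10709170 to 22488047 in EV-Veh. The part of either in the results on the receptors was not tested. TFEB lay between 14470 and 22629 normalized in TFEB-Dox and between 79.8 and 196 in the other 9 libraries, so the labels and the targeted gene agree in the 12 libraries. The myeloid markers listed to check the HL60 label (MPO, ELANE, PRTN3, AZU1, CTSG, CD33, ITGAM) were all above 0, 7 of 7. Their summed normalized level was 7587 to 10679 in TFEB-Dox against 47667 to 92923 in TFEB-Veh. In the EV line it was 4669 to 28549 with doxycycline against 63756 to 210928 with vehicle. MPO had the largest mean of the 7, with 5604 in TFEB-Dox against 63170 in TFEB-Veh. ITGAM alone averaged higher with doxycycline, at 108 against 71.2 in the TFEB line and 246 against 59.3 in the EV line. ELANE averaged 2458 in TFEB-Dox and 2544 in TFEB-Veh. The part of the 7 markers in the results on the receptors was not tested. For 5 lists of 4 markers each (T cells, B cells, erythroid, epithelial, fibroblast) the summed level lay between 15.9 and 381 per library, and HBA1 was at 0 in some libraries. In bulk RNA, fewer cells that express a gene and less RNA per cell cannot be told apart.

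The scale bears on several results. The authors' factors equal median-ratio size factors in 12 of 12 libraries. The median over the 10 genes of the SD within a group was 0.60 log2 units on the deposited scale, 0.56 after TMM factors, 0.30 at equal totals, 0.32 at equal upper quartiles and 0.27 after the median ratio of 7288 expressed nuclear genes. Changes are therefore given on the deposited scale and at equal totals side by side, and a change is said to hold on each scaling where limma called it in the same direction on all 5. A gene is called when limma's adjusted p, over all 23128 genes tested, is under 0.05. All 10 receptor genes passed the filter (mean normalized value of at least 10).

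**Figure D1:**
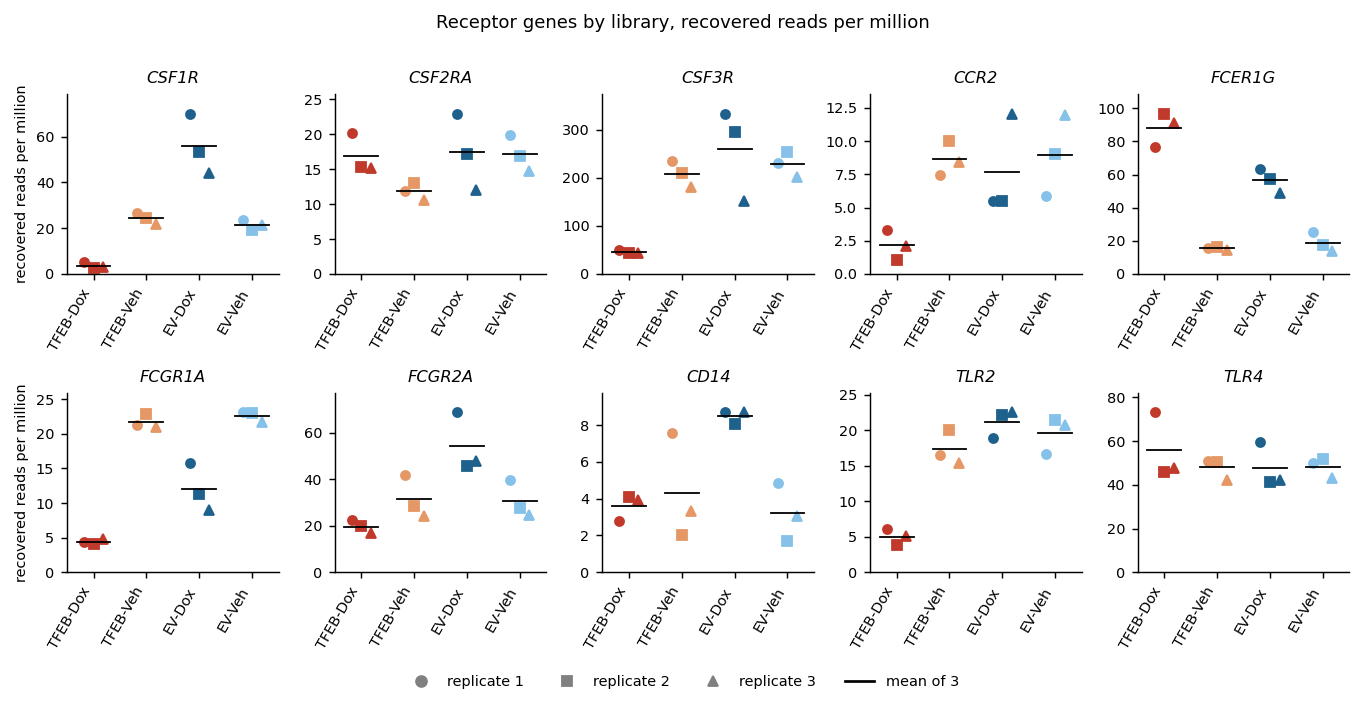
RPM (recovered reads) of the 10 receptor genes (y axis, linear from 0, each panel on its own scale) in the 12 libraries; colours mark the group, marker shapes the replicate and black lines the mean of 3. CSF1R, CSF3R, FCGR1A and TLR2 are lowest in TFEB-Dox, FCER1G is highest there, and CSF1R, FCER1G and CD14 are higher in EV-Dox than in EV-Veh.

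In cells with induced TFEB S211A the group split, in TFEB-Dox against TFEB-Veh. The Fc gamma chain FCER1G rose, with a mean 10.3-fold higher in normalized values and 5.64-fold higher in RPM, while CSF1R, FCGR1A and CCR2 fell. CSF2RA was called higher on the deposited scale too, so that 2 of 10 genes were higher, against 17.4% of all genes tested, and 3 of 10 were lower, against 4.66%. The median log2 change was -0.37 over the 10 genes and -0.00 over all genes. At equal totals 1 of 10 was higher (13.3% of all genes) and 6 of 10 were lower (28.8% of all genes; 36.8% of 7290 well expressed nuclear genes, at a mean of 200 or more). The 6 were CSF1R, CCR2, FCGR1A, CSF3R, TLR2 and FCGR2A. Equal totals moved the median of all genes to -0.82, and the median of the receptor genes was -1.22 there. FCER1G higher and CSF1R, CCR2 and FCGR1A lower held on each scaling.

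CSF1R, the receptor tyrosine kinase for CSF1, was lowest in TFEB-Dox. CSF1R had 79.6, 60.3 and 50.1 normalized in TFEB-Dox, against 189.9, 274 and 265 in TFEB-Veh. It had 695, 393 and 178 in EV-Dox, against 315, 424 and 222 in EV-Veh. Every TFEB-Dox library lay below every other library, while the 3 remaining groups overlapped. Of all genes tested, 14.4% lay wholly below TFEB-Veh in TFEB-Dox on this scale, 15.0% below EV-Dox and 15.9% below EV-Veh. CSF1R in TFEB-Dox rested on 76, 56 and 41 recovered reads. The log2 change against TFEB-Veh was -1.93 (SE 0.43, adjusted p 0.000556) by limma, and -2.78 (SE 0.23, adjusted p 4.71e-08) at equal totals. In RPM it averaged 3.59 ± 1.28 in TFEB-Dox and 24.3 ± 2.56 in TFEB-Veh (SD, n = 3 each), a mean 6.76-fold lower. The normalized mean was 3.84-fold lower. No library left out in turn removed this call, and the change ranged from -2.11 to -1.78. CSF1R has 2 starts in the RefSeq promoter table. The 250 bases before the more downstream start, at chr5:150086555-150086804 (GRCh38.p14, minus strand), are shown because they hold the purine-rich GAGGAA core of PU.1-type sites 2 times in a row just before the start, at 20 and 14 bases. Capitals mark GAGGAA and the C/EBP-type TTNNGNAA, searched on both strands.
CSF1R: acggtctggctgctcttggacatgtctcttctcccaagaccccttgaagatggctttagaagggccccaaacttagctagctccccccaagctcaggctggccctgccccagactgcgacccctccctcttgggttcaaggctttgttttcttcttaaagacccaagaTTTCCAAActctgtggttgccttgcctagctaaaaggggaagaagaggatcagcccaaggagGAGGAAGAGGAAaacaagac

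CSF3R, the G-CSF receptor of the neutrophil line, was also lower in TFEB-Dox than in TFEB-Veh, with a call that depends on the scale. CSF3R had 776, 929.6 and 730.2 normalized in TFEB-Dox, against 1665, 2344 and 2226 in TFEB-Veh. In the EV line it had 3308, 2174 and 609.9 with doxycycline, against 3072, 5655 and 2099.8 with vehicle. The TFEB-Dox libraries lay below every TFEB-Veh and EV-Veh library, but EV-Dox replicate 3, the shallowest library, lay lower still on the deposited scale. TFEB-Dox lay wholly below TFEB-Veh for 14.4% of all genes tested on that scale, and below EV-Veh for 15.9%. CSF3R's change of -1.35 (SE 0.57, adjusted p 0.0897) against TFEB-Veh was not called. It was called lower on the 4 other scalings, with -2.21 (SE 0.22, adjusted p 4.64e-07) at equal totals. CSF3R averaged 45.0 ± 3.88 RPM in TFEB-Dox and 209 ± 26.4 in TFEB-Veh, a mean 4.64-fold lower. The normalized mean was 2.56-fold lower. Without EV-Dox replicate 1 or EV-Dox replicate 3 the change was called on the deposited scale as well.

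CSF2RA, the alpha chain that gives the GM-CSF receptor its specificity, was higher in TFEB-Dox than in TFEB-Veh on the deposited scale. CSF2RA had 316, 335 and 259 normalized in TFEB-Dox, against 84.0, 145 and 130.1 in TFEB-Veh. EV-Dox had 228, 127 and 48.4 and EV-Veh had 266, 377 and 152. All TFEB-Dox libraries exceeded all TFEB-Veh libraries, as for 27.4% of all genes tested, and they overlapped with EV-Veh. Its change was 1.36 (SE 0.44, adjusted p 0.019) against TFEB-Veh, and 0.51 (SE 0.23, adjusted p 0.0777) at equal totals, where it was not called. It was called higher on 4 of the 5 scalings. The deposited call was lost without TFEB-Dox replicate 1, TFEB-Dox replicate 2 or TFEB-Veh replicate 1, with changes of 1.13 to 1.52 over the 12 omissions and adjusted p of up to 0.1205. In RPM CSF2RA averaged 16.9 ± 2.82 in TFEB-Dox, 11.8 ± 1.18 in TFEB-Veh, 17.4 ± 5.44 in EV-Dox and 17.2 ± 2.65 in EV-Veh, so TFEB-Veh was the lowest group. All TFEB-Veh libraries lay below all EV-Veh libraries, as for 8.67% of all genes tested on the deposited scale and 3.92% in RPM.

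CCR2, the receptor for the monocyte attractant CCL2, was lower in TFEB-Dox than in both vehicle groups. CCR2 had 52.4, 23.7 and 35.5 normalized in TFEB-Dox, against 53.0, 112 and 103 in TFEB-Veh. It had 54.3, 40.3 and 48.4 in EV-Dox, against 78.4, 201 and 124 in EV-Veh. Every TFEB-Dox library lay below every vehicle library, and the group overlapped with EV-Dox on the deposited scale. Lying wholly below TFEB-Veh was seen for 14.4% of all genes tested on that scale, and wholly below EV-Veh for 15.9%. The change against TFEB-Veh was -1.24 (SE 0.34, adjusted p 0.00626), and -2.07 (SE 0.42, adjusted p 0.0007) at equal totals. It rested on 22 to 50 recovered reads in TFEB-Dox. The deposited call was lost without TFEB-Dox replicate 2 or TFEB-Veh replicate 2, with an adjusted p of up to 0.0936, and at equal totals it held in 12 of 12 omissions.

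FCER1G, the gamma chain shared by FCGR1A, the IgE receptor and several C-type lectins, rose the most of the 10 genes. FCER1G had 1207, 2111 and 1548 normalized in TFEB-Dox, against 113, 186 and 176 in TFEB-Veh. In the EV line it had 627, 423 and 196 with doxycycline, against 338, 389 and 144 with vehicle. Every TFEB-Dox library exceeded every other library, and EV-Dox overlapped with EV-Veh. Of all genes tested, 27.4% lay wholly above TFEB-Veh in TFEB-Dox on this scale, 32.4% above EV-Dox and 16.9% above EV-Veh. The log2 change against TFEB-Veh was 3.34 (SE 0.48, adjusted p 4.14e-07), and 2.49 (SE 0.19, adjusted p 2.01e-08) at equal totals. Leaving out each library in turn gave changes of 3.12 to 3.54, all called. FCER1G averaged 88.2 ± 10.2 RPM in TFEB-Dox, 15.6 ± 1.14 in TFEB-Veh, 56.4 ± 7.27 in EV-Dox and 18.9 ± 5.87 in EV-Veh. On that scale EV-Dox stood between TFEB-Dox and the vehicle groups without overlap. EV-Dox lay wholly above EV-Veh in RPM for 38.7% of all genes tested, and TFEB-Dox wholly above EV-Dox for 13.8%. The 250 bases before the FCER1G start, at chr1:161215045-161215294 (GRCh38.p14, plus strand, RefSeq), are shown because FCER1G rose the most and none of the 3 motifs searched is among these letters, so none is in capitals.
FCER1G: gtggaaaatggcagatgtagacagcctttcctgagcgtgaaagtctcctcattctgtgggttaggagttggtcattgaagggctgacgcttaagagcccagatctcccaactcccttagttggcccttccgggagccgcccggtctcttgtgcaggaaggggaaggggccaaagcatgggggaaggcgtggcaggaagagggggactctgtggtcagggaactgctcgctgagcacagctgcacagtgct

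FCGR1A, the high-affinity IgG receptor that signals through FCER1G, moved the other way. FCGR1A had 68.1, 89.3 and 80.7 normalized in TFEB-Dox, against 151, 255 and 256 in TFEB-Veh. It had 156, 83.0 and 35.9 in EV-Dox, against 309, 513 and 225 in EV-Veh. Both doxycycline groups lay below both vehicle groups, apart from EV-Dox replicate 1, which exceeded TFEB-Veh replicate 1. Its change against TFEB-Veh was -1.43 (SE 0.41, adjusted p 0.00892), and -2.28 (SE 0.21, adjusted p 1.57e-07) at equal totals. FCGR1A averaged 4.39 ± 0.324 RPM in TFEB-Dox, 21.7 ± 1.01 in TFEB-Veh, 11.99 ± 3.46 in EV-Dox and 22.6 ± 0.828 in EV-Veh. The 2 vehicle groups overlapped and both doxycycline groups lay below them, with TFEB-Dox the lowest. In RPM, TFEB-Dox lay wholly below TFEB-Veh for 50.5% of all genes tested, below EV-Dox for 63.4% and below EV-Veh for 28.2%. EV-Dox lay wholly below EV-Veh for 10.9%. Of the 50-base words in GENCODE transcripts of FCGR1A, 73.6% also occur in other genes, 49.6% in FCGR1B and 24.7% in FCGR1CP, so the counting of FCGR1A is uncertain. FCGR1C changed by -1.67 (SE 0.36, adjusted p 0.000386) and FCGR1B by -0.83 (SE 0.34, adjusted p 0.0776).

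FCGR2A, the low-affinity activating IgG receptor with its own ITAM, was not called on the deposited scale in the TFEB line. FCGR2A had 349, 431 and 284 normalized in TFEB-Dox, against 298, 321 and 293 in TFEB-Veh. It had 683, 337 and 192 in EV-Dox, against 526, 619 and 257 in EV-Veh. All 4 groups overlapped on this scale. Its change against TFEB-Veh was 0.20 (SE 0.47, adjusted p 0.801) on the deposited scale and -0.66 (SE 0.23, adjusted p 0.0295) at equal totals, where the direction turned and the call was lost without TFEB-Dox replicate 2, TFEB-Dox replicate 3 or TFEB-Veh replicate 1. FCGR2A averaged 19.6 ± 2.79 RPM in TFEB-Dox, 31.5 ± 9.35 in TFEB-Veh, 54.2 ± 12.8 in EV-Dox and 30.6 ± 7.76 in EV-Veh. It shares 16.7% of its 50-base words with other genes, 14.9% with FCGR2C, and its values are uncertain to that extent.

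TLR2, the receptor for bacterial lipoproteins, was lower in TFEB-Dox without reaching a call on the deposited scale. TLR2 had 95.4, 83.9 and 85.6 normalized in TFEB-Dox, against 117, 223 and 189 in TFEB-Veh. It had 187, 163 and 90.6 in EV-Dox, against 221, 478 and 215 in EV-Veh. The TFEB-Dox libraries lay below all libraries of both vehicle groups. TFEB-Dox lay wholly below TFEB-Veh for 14.4% of all genes tested on this scale, and for 50.5% in RPM. For EV-Veh the shares were 15.9% and 28.2%. Its change against TFEB-Veh was -0.94 (SE 0.39, adjusted p 0.0814), and -1.79 (SE 0.21, adjusted p 2.42e-06) at equal totals, with a call on the 4 other scalings. On the deposited scale it was called without TFEB-Veh replicate 1, EV-Dox replicate 3 or EV-Veh replicate 2. TLR2 averaged 4.98 ± 1.11 RPM in TFEB-Dox, 17.3 ± 2.37 in TFEB-Veh, 21.2 ± 2.04 in EV-Dox and 19.6 ± 2.61 in EV-Veh, with the 3 groups other than TFEB-Dox overlapping. The 250 bases before the TLR2 start, at chr4:153684030-153684279 (GRCh38.p14, plus strand, RefSeq), are shown because they hold the E-box CACGTG, in capitals, at 95 bases before the start.
TLR2: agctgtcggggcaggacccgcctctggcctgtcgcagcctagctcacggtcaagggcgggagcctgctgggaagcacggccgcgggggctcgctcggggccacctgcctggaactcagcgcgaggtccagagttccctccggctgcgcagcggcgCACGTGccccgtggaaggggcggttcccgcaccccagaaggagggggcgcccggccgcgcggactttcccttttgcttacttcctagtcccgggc

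TLR4, the signalling receptor for lipopolysaccharide, had higher normalized values in TFEB-Dox than in TFEB-Veh, without a call, and overlapping RPM. TLR4 had 1153, 1002 and 815 normalized in TFEB-Dox, against 362, 566 and 519 in TFEB-Veh. It had 590.1, 304 and 169 in EV-Dox, against 664, 1153 and 446 in EV-Veh. TFEB-Dox exceeded TFEB-Veh and EV-Dox in all libraries and overlapped with EV-Veh. Of all genes tested, 27.4% lay wholly above TFEB-Veh in TFEB-Dox on this scale, and 32.4% above EV-Dox. Its change against TFEB-Veh was 1.05 (SE 0.50, adjusted p 0.135), and 0.19 (SE 0.19, adjusted p 0.385) at equal totals. TLR4 averaged 55.7 ± 15.4 RPM in TFEB-Dox, 47.9 ± 4.85 in TFEB-Veh, 47.6 ± 10.3 in EV-Dox and 48.2 ± 4.61 in EV-Veh, and the 4 groups overlapped.

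CD14, the co-receptor that hands lipopolysaccharide to TLR4, rested on few reads and was not called in the TFEB line. CD14 had 44.0, 89.3 and 67.3 normalized in TFEB-Dox, against 53.9, 22.5 and 40.7 in TFEB-Veh. It had 86.6, 59.6 and 35.0 in EV-Dox, against 64.4, 37.7 and 32.0 in EV-Veh. The 4 groups overlapped. Its change against TFEB-Veh was 0.79 (SE 0.34, adjusted p 0.0992), and -0.06 (SE 0.46, adjusted p 0.915) at equal totals. CD14 was called higher on the deposited scale without TFEB-Dox replicate 1, TFEB-Veh replicate 1 or EV-Dox replicate 3. In RPM CD14 averaged 3.62 ± 0.707 in TFEB-Dox, 4.31 ± 2.92 in TFEB-Veh, 8.51 ± 0.367 in EV-Dox and 3.20 ± 1.57 in EV-Veh, with the 3 EV-Dox libraries between 8.09 and 8.73 and the highest of the other groups, TFEB-Veh replicate 1, at 7.59.

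**Figure D2:**
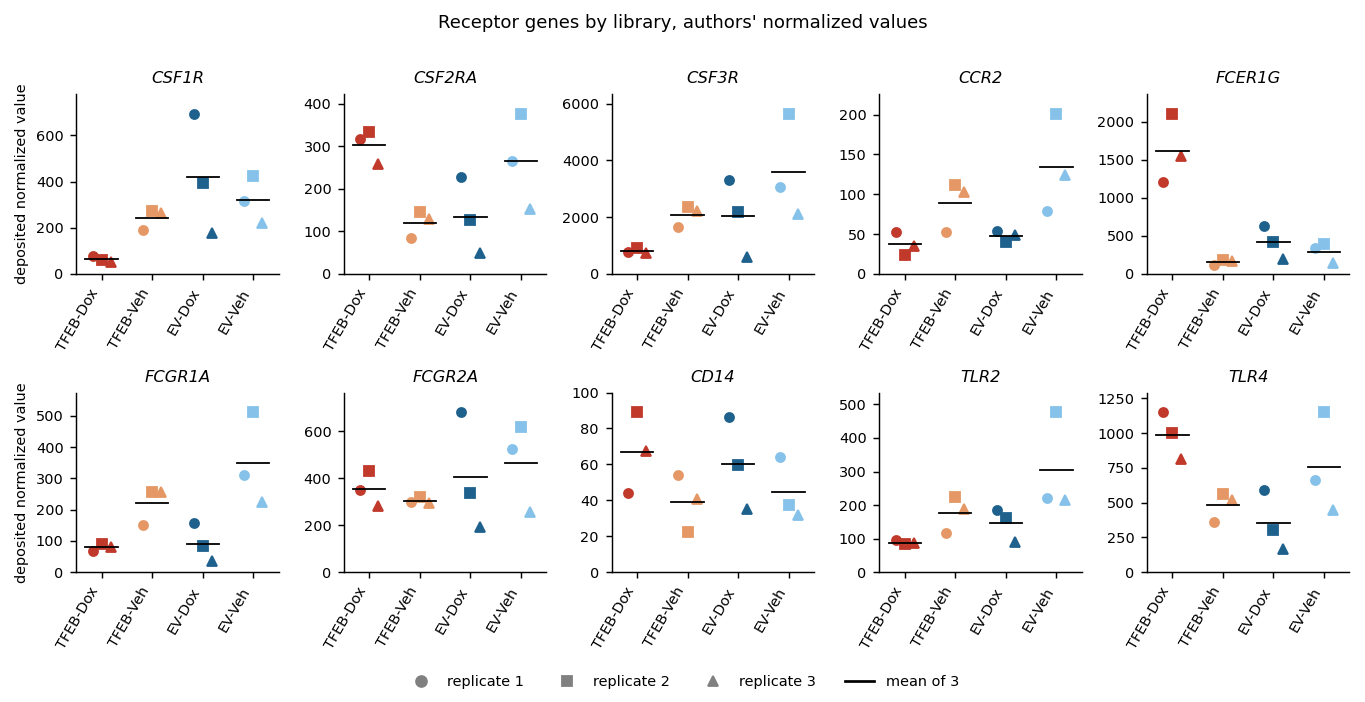
The authors' normalized values of the 10 receptor genes (y axis, linear from 0, each panel on its own scale) in the 12 libraries; colours mark the group, marker shapes the replicate and black lines the mean of 3. EV-Dox replicate 3 is the lowest of its group for 9 of the 10 genes, and CSF1R in TFEB-Dox (50.1 to 79.6) lies below all other groups.

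Doxycycline changed some of these genes without the transgene. In EV-Dox against EV-Veh, FCGR1A fell by 2.07 (SE 0.41, adjusted p 0.00177) on the log2 scale, CCR2 by 1.38 (SE 0.34, adjusted p 0.00669) and CSF2RA by 1.14 (SE 0.44, adjusted p 0.0477) on the deposited scale. None of the 10 rose, against 3.39% of all genes tested, and 3 of 10 fell, against 23.3%, a share close to that of all genes. FCGR1A was the 1 gene lower on each scaling, with -0.95 (SE 0.21, adjusted p 0.00699) at equal totals. CCR2 was called on 2 of 5 scalings, with -0.27 (SE 0.42, adjusted p 0.59) at equal totals, and CSF2RA on 1 of 5, with -0.02 (SE 0.23, adjusted p 0.952). At equal totals 4 of 10 were higher (35.5% of all genes) and 1 of 10 was lower (8.14%). The 4 were FCER1G (1.61, SE 0.19, adjusted p 0.000105), CD14 (1.51, SE 0.46, adjusted p 0.024), CSF1R (1.36, SE 0.23, adjusted p 0.00119) and FCGR2A (0.82, SE 0.23, adjusted p 0.0178), which were also called higher after upper quartile and expressed-gene scaling. On the deposited scale the changes of these 4 were not called: FCER1G 0.48 (SE 0.48, adjusted p 0.432), CD14 0.40 (SE 0.34, adjusted p 0.362), CSF1R 0.24 (SE 0.43, adjusted p 0.672) and FCGR2A -0.30 (SE 0.47, adjusted p 0.613). The other genes changed by -1.01 (TLR2), -1.16 (TLR4) and -1.02 (CSF3R) without a call, and by 0.12, -0.03 and 0.11 at equal totals. Equal totals moved the median of all genes from -0.19 on the deposited scale to 0.90, with the 10 receptor genes at -1.01 and 0.11. The median over the expressed nuclear genes was -1.29 on the deposited scale and -0.16 at equal totals. CCR2 lost its call without EV-Veh replicate 2 and CSF2RA in 9 of 12 omissions, while FCGR1A kept its call in all 12, and the count of genes called lower ranged from 1 (without EV-Veh replicate 2) to 6. The 6 came without EV-Dox replicate 1. Among near-identical genes, FCGR2C was called higher in EV-Dox (1.40, SE 0.35, adjusted p 0.00671) and FCGR2B too (0.83, SE 0.32, adjusted p 0.0492), both on each scaling. Without EV-Veh replicate 2 neither was called, and at least 1 of them lost its call in 8 other omissions.

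**Figure D3:**
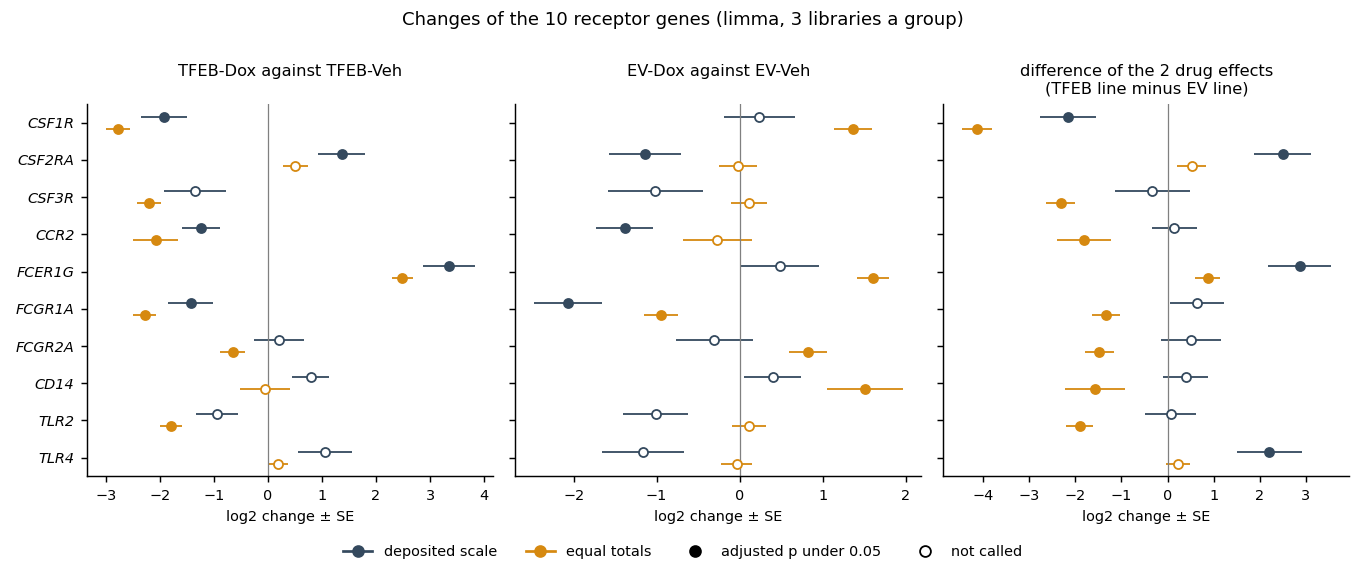
Log2 changes with standard errors (x axis) of the 10 receptor genes (y axis) for TFEB-Dox against TFEB-Veh, EV-Dox against EV-Veh and the difference of these 2 drug effects; dark points are the deposited scale, orange points equal totals, and filled points have a limma adjusted p under 0.05. FCER1G lies right of 0 and CSF1R left of 0 in the left and right panels on both scales, whereas TLR4 and CSF2RA are called in the right panel on the deposited scale alone.

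Whether the drug acted alike in both lines was asked with the interaction of vector and doxycycline, the effect in the TFEB line minus that in the EV line. FCER1G was higher by 2.86 (SE 0.68, adjusted p 0.00119) and CSF1R lower, at -2.17 (SE 0.60, adjusted p 0.00525), and these 2 held on each scaling, with 0.88 (SE 0.27, adjusted p 0.0114) and -4.14 (SE 0.32, adjusted p 1.2e-07) at equal totals. TLR4 (2.21, SE 0.70, adjusted p 0.0137) and CSF2RA (2.502, SE 0.62, adjusted p 0.00174) were called higher on the deposited scale and after TMM factors, and on none of the 3 other scalings, with 0.22 and 0.52 at equal totals. In all, 3 of 10 were higher, against 29.2% of all genes tested, and 1 of 10 was lower, against 6.15%. Of the 7290 well expressed nuclear genes 62.6% were higher on this scale, with a median of 2.04, close to the values of TLR4 and CSF2RA. At equal totals 1 of 10 was higher (11.3% of all genes) and 7 of 10 were lower (57.9% of all genes, 27.5% of the well expressed ones). The median of all genes was 0.31 on the deposited scale and -1.62 at equal totals, and that of the well expressed genes 0.05 at equal totals. The other genes gave 0.14 (CCR2), 0.64 (FCGR1A), 0.51 (FCGR2A), 0.39 (CD14), 0.07 (TLR2) and -0.33 (CSF3R) on the deposited scale, none called. CSF1R's interaction ranged from -2.68 to -1.70 and FCER1G's from 2.40 to 3.30 when each library was left out, all called. FCGR1A fell with doxycycline in both lines, and its interaction was not called on the deposited scale and was -1.33 (SE 0.30, adjusted p 0.00216) at equal totals.

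Against EV-Dox, which shares the TFEB-Dox libraries with the comparison above, the drug is present in both arms. On the deposited scale 3 of 10 genes were higher, against 27.2% of all genes tested, and 1 of 10 was lower, against 5.37%. FCER1G (2.08, SE 0.48, adjusted p 0.00068), TLR4 (1.65, SE 0.50, adjusted p 0.00869) and CSF2RA (1.42, SE 0.44, adjusted p 0.0099) were higher and CSF1R (-2.53, SE 0.43, adjusted p 7.41e-06) was lower. FCER1G and CSF1R held on each scaling, with 0.64 (SE 0.19, adjusted p 0.00812) and -3.96 (SE 0.23, adjusted p 9.89e-10) at equal totals. The remaining genes, none called, changed by -0.41 (CCR2), 0.02 (FCGR1A), -0.02 (FCGR2A), 0.18 (CD14), -0.66 (TLR2) and -1.02 (CSF3R). At equal totals 1 of 10 was higher (13.3% of all genes) and 7 of 10 were lower (61.9%), and the median of all genes moved from 0.07 to -1.31. The 7 lower genes there ranged from -1.23 (CD14) to -3.96 (CSF1R), with CSF3R at -2.46 and TLR2 at -2.09. Without EV-Dox replicate 3 the deposited call of CSF2RA was lost and CSF3R and TLR2 were called lower, so that 3 genes were lower.

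Against EV-Veh, in which neither drug nor transgene is present, 1 receptor gene was higher and 5 were lower on the deposited scale. FCER1G was the 1 gene of 10 that was higher, against 12.2% of all genes tested, by 2.56 (SE 0.48, adjusted p 5.8e-05). Lower were 5 of 10, against 8.51% of all genes: CSF1R (-2.30, SE 0.43, adjusted p 5.04e-05), FCGR1A (-2.05, SE 0.41, adjusted p 0.000178), CSF3R (-2.04, SE 0.57, adjusted p 0.00711), CCR2 (-1.80, SE 0.34, adjusted p 8.11e-05) and TLR2 (-1.67, SE 0.39, adjusted p 0.00112). These 6 calls stood on all 5 scalings and in all 12 omissions. FCGR2A was called lower at equal totals as well (-0.63), and on no other scaling. FCGR2A (-0.32), CD14 (0.58), TLR4 (0.49) and CSF2RA (0.28) were not called on the deposited scale. The median change was -0.998 over the 10 genes and 0.01 over all genes on the deposited scale, and -1.30 and -0.28 at equal totals.

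The vector alone, TFEB-Veh against EV-Veh, called none of the 10 genes, as 0% of all genes tested were higher and 0% lower. At an unadjusted p under 0.05 limma found 1754 genes, edgeR 2754 and DESeq2 1903, with 0 after adjustment in each. CSF2RA was the 1 receptor gene among them by each of the 3 tools, with a change of -1.08 (SE 0.44, adjusted p 0.452). The changes of the others were -0.37 (CSF1R), -0.69 (CSF3R), -0.55 (CCR2), -0.78 (FCER1G), -0.61 (FCGR1A), -0.52 (FCGR2A), -0.21 (CD14), -0.73 (TLR2) and -0.56 (TLR4). The same genes lay between -0.23 (FCER1G) and 0.33 (CD14) at equal totals, CSF2RA (-0.53) aside.

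A ligand and a partner chain of the growth factor receptors rose in TFEB-Dox. CSF1, the ligand of CSF1R, averaged 119 ± 7.92 RPM in TFEB-Dox and 6.47 ± 1.82 in TFEB-Veh (SD, n = 3 each), a change of 5.08 (SE 0.37, adjusted p 3.65e-15) on the deposited scale. CSF1R fell in the same libraries. CSF2RB, the signalling chain that CSF2RA shares with the IL-3 and IL-5 receptors, averaged 99.9 ± 14.2 RPM in TFEB-Dox and 41.7 ± 9.02 in TFEB-Veh, a change of 2.13 (SE 0.52, adjusted p 0.00176). IL3RA, the IL-3 alpha chain, changed by 1.58 (SE 0.31, adjusted p 0.000109) and was called on 3 of the 5 scalings. FLT3, the receptor of early progenitors, fell by 2.02 (adjusted p 0.000955). FLT3 was also lower in EV-Dox than in EV-Veh, at -1.76 (SE 0.47, adjusted p 0.00924), on each scaling. Its interaction of -0.26 (SE 0.66, adjusted p 0.761) was not called on the deposited scale. That interaction was called lower on 3 of the 5 scalings, with -2.25 (SE 0.21, adjusted p 6.29e-07) at equal totals. Of 10 tested ligands and partner receptors 3 were called higher (17.4% of all genes) and 1 lower (4.66%), with a median of -0.25 against -0.00 over all genes. Those not tested for low values were CSF2, IL3 and IL5. CSF1, CSF2RB and FLT3 held on each scaling.

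**Figure D4:**
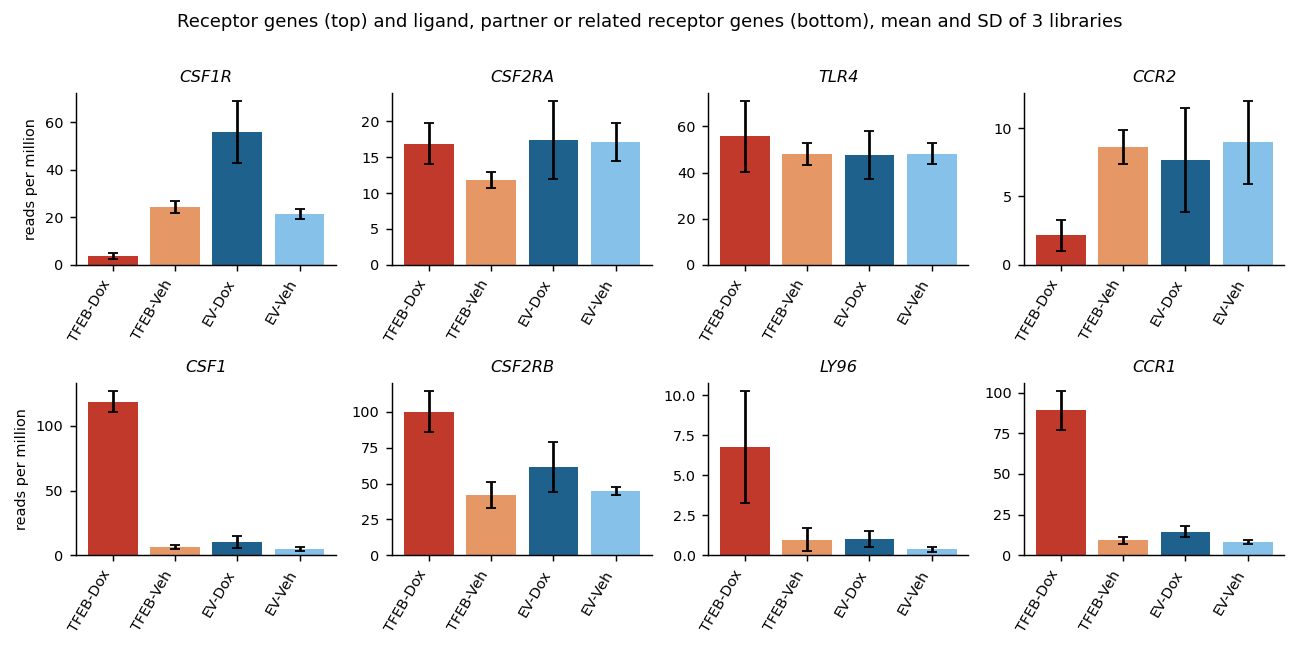
Mean RPM (recovered reads) with SD of 3 libraries (y axis, from 0, each panel on its own scale) for 4 receptor genes in the top row and, below each, a ligand (CSF1), partner chain (CSF2RB), co-receptor (LY96) or related receptor (CCR1) gene. The 4 genes of the bottom row are highest in TFEB-Dox, while CSF1R and CCR2 above them are lowest there. LY96 passed the filter on low values through TFEB-Dox alone.

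Genes that carry or damp the receptors' signals were called higher in 7 of 16 cases (17.4% of all genes) and lower in none (4.66%), against TFEB-Veh, with a median of 0.99. PIM1, a kinase gene that JAK-STAT signals switch on, averaged 246 ± 48.9 RPM in TFEB-Dox and 8.52 ± 2.18 in TFEB-Veh (5.71, SE 0.44, adjusted p 2.82e-14). The feedback inhibitors SOCS1 (3.79, SE 0.32, adjusted p 3.25e-13) and SOCS3 (2.74, SE 0.30, adjusted p 9.74e-10) and the docking protein GAB2 (2.04, SE 0.52, adjusted p 0.0029) were higher as well. Without TFEB-Dox replicate 2 the count was 4 of 16. At equal totals 7 were higher (13.3% of all genes, 31.3% of the well expressed ones) and 6 lower (28.8% and 36.8%). In EV-Dox against EV-Veh none of the 16 was higher and 4 were lower (23.3% of all genes, 51.2% of the well expressed ones). The count of lower genes was 0 without EV-Veh replicate 2 and 10 without EV-Dox replicate 1.

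Other Fc receptor and ITAM genes were called higher in 4 of 21 cases and lower in none, against TFEB-Veh, with a median of -0.26. The share called higher was near the 17.4% of all genes, and 4.66% of all genes were lower. FGR, a SRC-family kinase of myeloid cells, averaged 129 ± 8.31 RPM in TFEB-Dox and 16.8 ± 8.32 in TFEB-Veh (3.91, SE 0.45, adjusted p 2.92e-09). TREM1 (2.91, SE 0.33, adjusted p 1.46e-09) and OSCAR (2.49, SE 0.48, adjusted p 7.49e-05) are activating receptors, of which OSCAR signals through FCER1G and TREM1 through TYROBP. PLCG2, the phospholipase downstream of SYK, was higher by 1.97 (SE 0.50, adjusted p 0.00271). These 4 held on each scaling. For the interaction FGR and PLCG2 were called higher on each, OSCAR on 3 of 5 and TREM1 on 2. None of the 4 was called in EV-Dox against EV-Veh on the deposited scale. At equal totals FGR (1.01, adjusted p 0.0147), TREM1 (1.15, adjusted p 0.0301) and OSCAR (0.79, adjusted p 0.0387) were called higher there, and PLCG2 (0.01, adjusted p 0.965) was not. Against TFEB-Veh, TYROBP, the other short ITAM chain, changed by 0.50 (SE 0.55, adjusted p 0.565) and was not called. SYK changed by -1.29 (SE 0.56, adjusted p 0.0962), not called on the deposited scale and lower at equal totals (-2.15, adjusted p 4.98e-07). At equal totals 4 were higher (13.3% of all genes) and 8 lower (28.8%). Without EV-Dox replicate 3 the deposited count of lower genes was 4.

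Of 22 other Toll-like receptor, cofactor and adaptor genes, 5 were called higher (17.4% of all genes) and 3 lower (4.66%) against TFEB-Veh, with a median of 0.28. The 8 called genes were cofactors, adaptors, kinases and inhibitors; TLR1, TLR3, TLR5, TLR6, TLR7, TLR8 and TLR10 were not called. At equal totals 4 were higher (13.3% of all genes) and 6 lower, a share near the 28.8% of all genes, with a median of -0.58. LY96, which encodes the MD-2 protein that TLR4 needs to bind lipopolysaccharide, averaged 6.75 ± 3.48 RPM in TFEB-Dox and 0.978 ± 0.718 in TFEB-Veh (3.55, SE 0.44, adjusted p 1.55e-08). TOLLIP, an inhibitory adaptor of TLR and IL-1 signalling, was higher by 3.62 (SE 0.46, adjusted p 3.09e-08), and the kinases IRAK1 (2.22, SE 0.59, adjusted p 0.004) and IRAK2 (1.82, SE 0.30, adjusted p 4.86e-06) were higher too. IRAK2 was called on 2 of 5 scalings, the other 3 on each. For the interaction TOLLIP and IRAK1 were called higher on each scaling, LY96 on 2 and IRAK2 on 1. The 3 lower genes were LBP, LY86 and SIGIRR, each on all 5 scalings, with 1 left without TFEB-Dox replicate 2, TFEB-Dox replicate 3 or TFEB-Veh replicate 2. The genes not tested for low values were TLR9 and TICAM2.

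Several chemoattractant receptors rose where CCR2 fell. CCR1, a receptor for CCL3 and CCL5, averaged 89.0 ± 11.7 RPM in TFEB-Dox and 9.19 ± 2.17 in TFEB-Veh (4.14, SE 0.42, adjusted p 9.01e-11). CCRL2, an atypical receptor that presents chemerin (7.22, SE 0.34, adjusted p 8.21e-21), the C5a receptor gene C5AR1 (4.67, SE 0.41, adjusted p 1.24e-12) and the C3a receptor gene C3AR1 (1.51, SE 0.38, adjusted p 0.00244) rose too, all 4 on each scaling. Of 12 tested 5 were higher (17.4% of all genes) and 2 lower (4.66%) against TFEB-Veh, with a median of 0.45. At equal totals 4 were higher (13.3% of all genes) and 5 lower (28.8%), with a median of -0.38 against -0.82 over all genes. The 2 lower genes, CXCR2 and FPR2, are receptors of neutrophils for interleukin-8 and formyl peptides. A single gene was lower without any one of TFEB-Dox replicates 1, 2 or 3, TFEB-Veh replicates 1 or 2, EV-Dox replicate 2 or EV-Veh replicate 1. CCL7, CCL8 and CCL13, ligands of CCR2, were not tested for low values.

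Regulators known for these receptor genes were called in 10 of 13 cases against TFEB-Veh, 5 higher (17.4% of all genes) and 5 lower (4.66%), with a median of 0.47. Of the well expressed nuclear genes 31.5% were higher and 3.51% lower. The immediate-early factors EGR1 (8.01, SE 0.38, adjusted p 6.31e-21) and EGR2 (5.57, SE 0.32, adjusted p 3.99e-18) and CEBPB (3.01, SE 0.54, adjusted p 2.34e-05), a factor of monocyte genes, were higher. MYB, which holds progenitors in an immature state, averaged 33.6 ± 3.50 RPM in TFEB-Dox and 423 ± 35.6 in TFEB-Veh, and fell by 2.79 (adjusted p 0.000132). KLF4 and NR4A1 were the other 2 that rose, and CEBPE, GFI1, IRF8 and RUNX1 the other 4 that fell, all 10 on each scaling. With 1 library left out, 3 regulators were lower without TFEB-Dox replicate 1, TFEB-Dox replicate 3, TFEB-Veh replicate 2 or TFEB-Veh replicate 3. In EV-Dox against EV-Veh none was higher and 8 were lower (23.3% of all genes, 51.2% of the well expressed ones). Of the 8, 5 were lower on each scaling (CEBPE, GFI1, IRF8, MYB and SPI1). The 8 became 2 without EV-Veh replicate 2, 3 without EV-Dox replicate 3 and 5 without EV-Veh replicate 1.

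**Figure D5:**
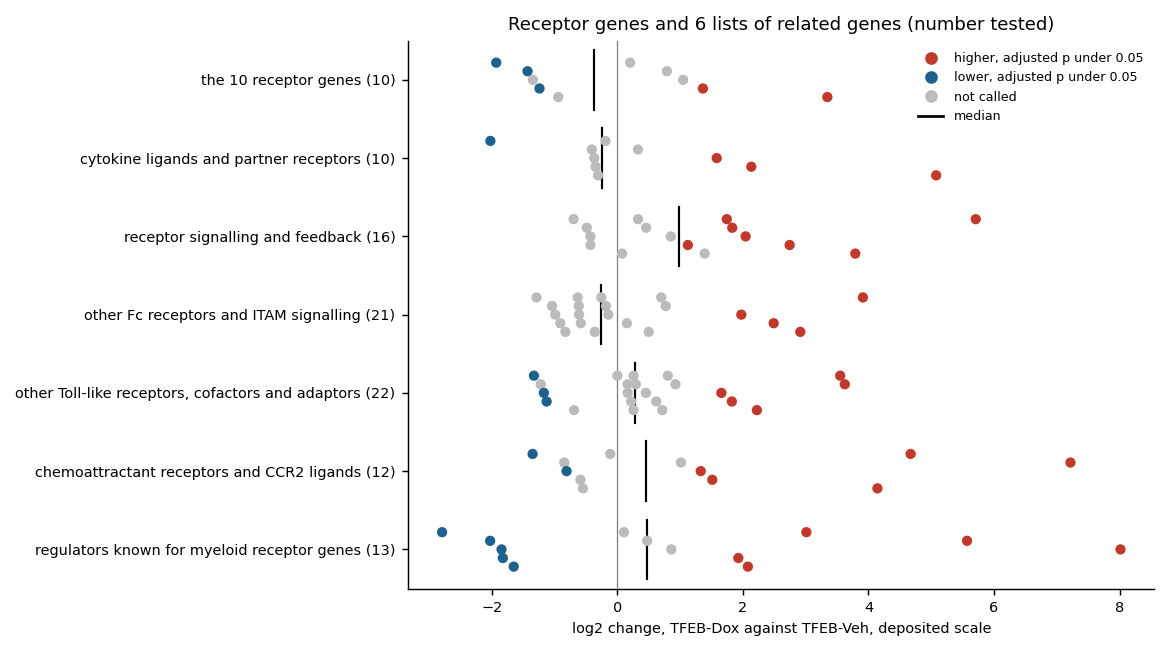
Log2 change of TFEB-Dox against TFEB-Veh on the deposited scale (x axis) for the 10 receptor genes and the tested genes of 6 lists (y axis, number in brackets); red and blue points have a limma adjusted p under 0.05, grey points do not, and black bars are medians. The medians run from -0.37 for the receptor genes to 0.99 for receptor signalling and feedback.

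How alike the 10 genes were across the 12 libraries is given as a description, since libraries of one group and their scale are shared. On log2 values the highest Pearson correlations were 0.95 for TLR4 with CSF2RA, 0.94 for TLR2 with CSF3R and 0.88 for FCGR1A with TLR2 on the deposited scale. At equal totals TLR2 with CSF3R gave 0.94, CSF1R with CSF3R 0.93 and CSF1R with TLR2 0.93, while TLR4 with CSF2RA gave 0.60. FCER1G ran against FCGR1A, with -0.37 on the deposited scale and -0.89 at equal totals. Among 12061 genes averaging 50 or more, those closest to CSF1R were PTGS1 (0.99), LILRB1 (0.98) and CCDC109B (0.98), and closest to FCER1G were RBM47 (0.99), KAT2B (0.98) and TRIM38 (0.97). FCGR1A was closest to MCM2 (0.99), MCM4 (0.99) and FAM46A (0.99), and TLR2 to SETMAR (0.99), STIL (0.98) and NSUN5P1 (0.98). CSF3R was closest to PITPNM1 (0.99), RASSF1 (0.99) and ACAP1 (0.99), and CCR2 to ZBTB16 (0.95), LAMP5 (0.94) and VAT1L (0.94). TLR4 was closest to XPNPEP1, BCL7B and OLIG2 (0.99 each), and CSF2RA to SIRT1 (0.99), CDC73 (0.99) and DLEU7 (0.98). FCGR2A (CTD-2353F22.1 at 0.97, PLOD1 at 0.95, STK11IP at 0.94) and CD14 (IQSEC2 at 0.85, SMIM14 and PAPLN at 0.84) had looser matches. All of these are correlations on the deposited scale; at equal totals that of DLEU7 with CSF2RA was 0.55.

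The promoters were read for motifs in the 250 bases before each start, on both strands, over 12 RefSeq starts of the 10 genes (GRCh38.p14). GAGGAA, the core of PU.1-type sites, was found in 7 of the 12 receptor promoters, 1 for each of 7 genes (CSF1R, CSF2RA, CSF3R, FCGR1A, FCGR2A, CD14 and TLR4) and in 23.6% of 35116 promoters. TLR4 held it 4 times and CSF1R and CSF2RA 2 times each. TTNNGNAA, a C/EBP-type motif, was found in 6 of the 12, 1 for each of 6 genes (CSF1R, CSF2RA, CSF3R, CCR2, FCGR2A and CD14) and in 33.2% of promoters. CACGTG was found in 1 of the 12, that of TLR2, in the stretch printed above, and in 6.35% of promoters with each promoter counted once per motif. A match is a run of letters and not a site, and the window does not reach enhancers.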

How the data were processed

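RNA-seq (total RNA, NuGEN Ovation FFPE kit) was measured in 12 libraries of HL60 cells, 3 in each of 4 groups taken from the labels. STAR 2.5.3a and HTSeq 0.6.1 are named in the submitters' processing notes; build, annotation and strand setting were not stated in the labels or the file. The deposited signal is a normalized count per gene, which the authors scaled by a factor per library. Within a tolerance of 0.01 read, 100% of the deposited values came out as whole reads; in 2 libraries 1 read is worth within 1% of 1. No value column was left unmapped (0).

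The test was limma 3.58.1 on log2(value + 1), for genes averaging 10 or more (R 4.3.3), one model over the 4 groups, 6 contrasts and Benjamini-Hochberg adjustment over 23128 genes. Fold changes on this scale understate low genes. Alternatives were other scalings, pseudocounts of 0.5 and 5, filters of 1 and 50, a replicate block, omission of each library, and edgeR 4.0.16 and DESeq2 1.42.0 on recovered reads. In TFEB-Dox against TFEB-Veh edgeR called 4489 genes higher and 2196 lower, and DESeq2 4630 and 1592. On simulated data only the limma fit on the deposited scale was tried, for TFEB-Dox against TFEB-Veh. SDs cover the 3 experiments of a group.

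All 10 receptor genes were named in every library and contrast; of each gene list up to 4 called genes with the largest change, and per receptor gene the 3 most alike genes. The members and lists were chosen with earlier results of these data known.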

Additional observations from a re-analysis of the deposited data

Results flagged for a closer look

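For 4 of the receptor genes the effect of doxycycline differed between the TFEB line and the EV line, by limma's test of the interaction on the deposited scale (effect in the TFEB line minus effect in the EV line). CSF1R gave -2.17, as it was lower in TFEB-Dox than in TFEB-Veh and not called in EV-Dox against EV-Veh. FCER1G gave 2.86, with a call in the TFEB line alone on the deposited scale. In EV-Dox against EV-Veh it was called higher on 3 of 5 scalings, with 1.61 at equal totals, where the interaction was 0.88. That of CSF1R was -4.14 there. TLR4 gave 2.21, although neither line's own change was called. CSF2RA gave 2.502, being higher in TFEB-Dox than in TFEB-Veh and lower in EV-Dox than in EV-Veh. The first 2 were called on each of 5 scalings. TLR4 and CSF2RA were called on 2 of 5, with 0.22 and 0.52 at equal totals. On the deposited scale 62.6% of the 7290 well expressed nuclear genes were higher, with a median of 2.04, near the values of these 2 genes.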

How the results depend on the processing

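The numbers of the 10 receptor genes called depended on the scaling, on single libraries and, in some comparisons, on the filter, the samples fitted and the tool. In TFEB-Dox against TFEB-Veh 2 were higher: 1 at equal totals, 4 with the compared groups alone, and 1 to 4 with a library left out. There 3 were lower: 5 after TMM factors, upper quartile or expressed-gene scaling, with the compared groups alone, with edgeR and with DESeq2, 6 at equal totals, and 2 to 5 with a library left out. In TFEB-Dox against EV-Dox 3 were higher: 1 at equal totals and after expressed-gene scaling, and 2 to 3 with a library left out. There 1 was lower: 7 at equal totals and after expressed-gene scaling, 6 at equal upper quartiles, 3 with edgeR and DESeq2, and 1 to 3 with a library left out. In EV-Dox against EV-Veh 0 were higher: 4 at equal totals, upper quartile and expressed-gene scaling and 2 with edgeR. There 3 were lower: 5 with a minimum mean of 50, 1 at equal totals, upper quartile and expressed-gene scaling and with edgeR, and 1 to 6 with a library left out. For the interaction 3 were higher: 1 at equal totals, upper quartile and expressed-gene scaling. There 1 was lower: 7 at equal totals and after expressed-gene scaling, 6 at equal upper quartiles and 3 with edgeR.

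Some changes turned direction. In TFEB-Dox against TFEB-Veh, FCGR2A was -0.66 at equal totals. In TFEB-Dox against EV-Dox, FCGR1A was -1.40 at equal totals, -1.11 at equal upper quartiles and -1.34 after expressed-gene scaling, CD14 -1.23 at equal totals and -1.18 after expressed-gene scaling, and CSF2RA -0.00597 at equal totals. In EV-Dox against EV-Veh, FCGR2A was 0.82, 0.74 and 0.98 on those 3 scalings and CSF2RA 0.14 after expressed-gene scaling. For the interaction, CCR2 was -1.81, -1.57 and -1.86, FCGR1A -1.33, -1.10 and -1.38, FCGR2A -1.48, -1.24 and -1.53, TLR2 -1.91, -1.67 and -1.96 (-0.82 with edgeR), and CD14 -1.56 at equal totals and -1.61 after expressed-gene scaling. The cause was not tested.

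Whether same-numbered replicates pair the samples could not be decided from the correlation of their deviations. It ran from -0.597 to 0.685 over 18 same-numbered pairs, of which 12 exceeded 0.1. Pairs with different numbers covered much the same range, from -0.705 to 0.682, but a smaller share of them exceeded 0.1. With a replicate block 5 receptor genes were lower in TFEB-Dox against TFEB-Veh and 5 in EV-Dox against EV-Veh. Few reads limit CCR2, CD14, CSF1R in TFEB-Dox, and LY96 outside TFEB-Dox.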
